A study of Camponotus floridanus with 24 samples.

Results

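The solitary scarce miRNAs of Camponotus floridanus terminal larvae are 92 of 459 first-listed mature forms in the small RNA counts. They were chosen by level and position: a minimum of 10 reads in 12 or more of the 24 libraries, a mean under 500 RPM (reads per 1000000 counted reads of a library), counts that no other tested form shares exactly, and no other tested first-listed form within a running number of 5 on the same scaffold. Of the 459 forms, 226 did not reach the read limit, and every one of these also had a mean under 500 RPM. Of the 233 that reached it, 44 had exact copies, 64 more had a close neighbour, and 33 were solitary but too abundant. The level of a form was therefore fixed by the choice and is given as a description. The relation to larval length, the level of the hairpin's second-listed form and the spread between larvae were not criteria of the choice. The read limit acts on counts, so depth and spread between libraries could still affect which forms met it.

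A miRNA is cut from a hairpin in a longer transcript, and a mature strand guides an Argonaute protein to messenger RNAs that pair with its seed, which are then repressed. Many insect miRNAs lie in clusters that are transcribed together, whereas a solitary hairpin has its own promoter or lies within a host gene. A miRNA that is rare in a whole animal may be abundant in a small group of cells. Reads from a whole body cannot tell fewer cells of a type from less RNA per cell.

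Each library came from the whole body of 1 female terminal larva of the Florida carpenter ant, a species whose workers differ widely in size. The labels give each of the 24 larvae a length between 4648.07 and 7598.06 µm and name no treatment, colony, age or batch. The larvae were ordered by length and divided into 3 classes of 8, the smallest from 4648.07 to 5502.35 µm, the middle from 5690.32 to 6689.42 µm and the largest from 6797.79 to 7598.06 µm. Each larva was a separate animal.

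The libraries held 881734 to 6128791 counted reads, so a count of 0 allowed up to 3.40 RPM in the shallowest and 0.489 in the deepest. This covers counting error only. Sets of 9 and 15 libraries, which no label names, were found in the counts. The 9 held 881734 to 2114243 reads and the 15 held 1638537 to 6128791. The set of 9 included 2 of the smallest, 5 of the middle and 2 of the largest larvae. Values for each set are given beside the results, since set and depth differ together.

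Together the 92 forms made up 0.421% ± 0.0320 of all reads (SD, n = 24), with a lowest share of 0.373% and a highest of 0.510%. Their share was 0.412% ± 0.0187 in the smallest class, against 0.441% ± 0.0450 in the middle one and 0.411% ± 0.0183 among the largest larvae (SD, n = 8 each). Mean levels spanned 141-fold, from 427 down to 3.04 RPM, with a median of 17.3 and an interquartile range of 9.15 to 41.5. There were 9 forms at or above 100 RPM, 58 between 10 and 100, and 25 below 10. The 10 most abundant held 53.6% of the reads of the 92. Forms are called below by their rank in mean level, from 1, the highest, to 92.

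**Figure D1:**
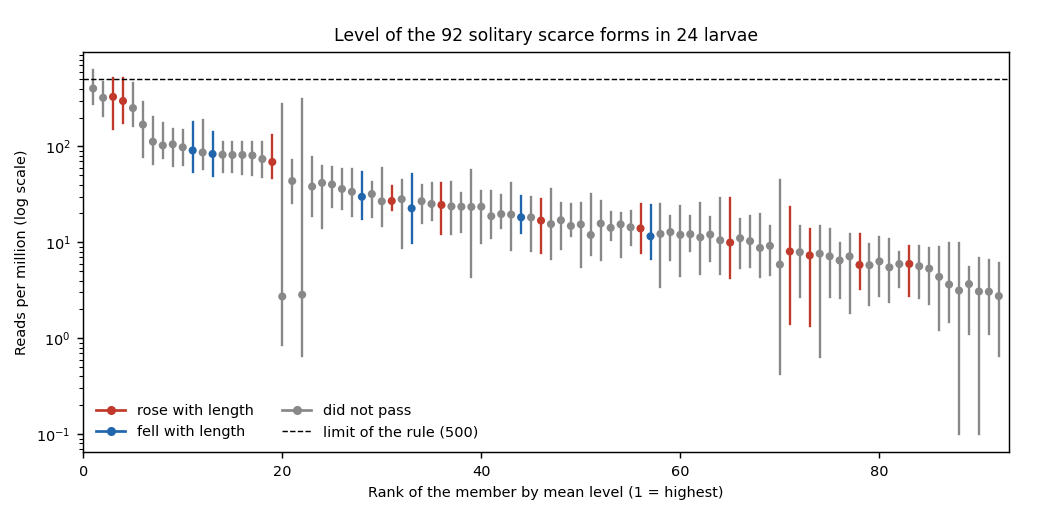
Lowest, median (dot) and highest level of each of the 92 forms over 24 larvae, in RPM on a log scale, by rank in mean level; a value of 0 is drawn at 0.1. The ranges of ranks 20 and 22 stand out, from under 1 to 278 and 313 RPM, while risers (red) and fallers (blue) are spread over the ranks.

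Rank 1 ranged from 276 to 623 RPM with a median of 402, and that of rank 2 from 206 to 466 with a median of 321. At the other end, the form of rank 92 ranged from 0.659 to 6.13 RPM with a median of 2.75, that of rank 91 from 1.10 to 6.62 and that of rank 90 from 0 to 6.80. The lowest 3 means lay below the 3.40 RPM that a count of 0 allowed in the shallowest library. A count of 10 or more was found in every library for 49 forms, and in 12 to 23 libraries for 43. For 51 forms this held in every one of the 9 libraries, and for 76 forms in every one of the 15. For 2 forms it held in none of the 9. In 11 forms it held in under 4 larvae of at least 1 size class. A count of 0 occurred in 2 forms, in 1 library each for ranks 88 and 90.

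The limits of the choice cut through a continuous range of values. The solitary form nearest above 500 had a mean of 582 RPM and ranged from 405 to 849, against 427 for rank 1 just inside. The smallest permitted distance, 6 running numbers, held for ranks 7, 11 and 44, with means of 120, 97.3 and 19.2 RPM. Ranks 7 and 44 were each other's neighbour. A single first-listed form had at least 10 reads in exactly 11 libraries and a single member had them in exactly 12.

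The 92 forms came from 60 scaffolds, and 26 of them were the only tested first-listed form on their scaffold. For the other 66 the nearest tested form lay 6 to 480 running numbers away, with a median of 58.5. The running number orders the hairpins on a scaffold and is not a distance in bases. The names hold no positions, and 0 of the 92 matched the 14020 genes of the RefSeq table of Cflo_v7.5, so no miRNA name or role is given to them.

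Solitary position and unequal counts did not give every form a profile of its own. Ranks 14 to 17, on 4 different scaffolds, had 6201 to 6290 reads in all and differed from each other by at most 10 reads in any library. Their summed differences over the libraries were at most 1.43% of their mean reads. Rank 19 had 5151 reads against 5153 for a tested form outside the 92 on the same scaffold, 577 running numbers away, with equal counts in 22 of 24 libraries. Whether these 5 forms share reads with another hairpin was not tested, since no sequences were at hand. With ranks 14 to 17 counted once, the 92 forms hold 89 profiles.

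The median spread between larvae in these forms was near that of all tested forms and above that of the solitary abundant forms. The biological coefficient of variation, edgeR's estimate of the spread between larvae around the fitted line beyond counting error, had a median of 27.6% and an interquartile range of 24.6% to 31.4%. Over all 336 tested forms of both blocks the median was 26.3%, and over the 33 solitary abundant forms it was 23.3%. The lowest value, 14.2%, was that of rank 83, which was not even between larvae. It rose with length and ranged from 2.77 to 9.07 RPM. The variance expected from counting error was 79.4% of its whole variance between larvae. That whole includes the trend with length, so the ratio is not a partition of the variance. There were 8 forms over 40%, led by rank 20 at 167%, rank 22 at 161% and rank 70 at 94.5%; the next was rank 39 at 52.1%.

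Counting error weighed more on the lower ranks. In ranks 1 to 31 the median count per library was 288 reads. The variance expected from counting error was there a median of 10.6% of the whole variance between larvae, trend included. In ranks 32 to 62 these were 50.5 reads and 26.5%, and in ranks 63 to 92 they were 18.5 reads and 55.7%. The median standard error of the slope on length grew from 0.077 to 0.092 and 0.12 log2 units per 1000 µm over the same ranks. A slope of a given size was thus harder to detect in the scarcest forms.

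The first comparison asked which of these miRNAs changed in abundance along larval length. With longer larvae 12 of the 92 forms rose and 6 fell. The call was an adjusted p under 0.05 in the quasi-likelihood F test of edgeR, adjusted by Benjamini-Hochberg over all 336 tested forms. Over all 336 forms, 20.5% passed, 11.6% rising and 8.93% falling, against 19.6%, 13% and 6.52% of the 92. At an unadjusted p under 0.05 there were 27 of the 92 (29.3%) and 32.1% of all 336. The share of changing forms was thus near that of the whole table. The median slope was 0.04 log2 units per 1000 µm in the 92 forms and 0.02 in all 336. The slope was above 0 in 55 of the 92 and in 181 of the 336.

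The 12 risers had slopes from 0.15 to 0.49, with a median of 0.39. The fitted line gives them 1.35-fold to 2.71-fold over the 2950 µm between the shortest and the longest larva, and over 2-fold in 10 of them. The 6 fallers had slopes from -0.44 to -0.19, with a median of -0.36, and the fitted line gives a 1.49-fold to 2.48-fold decrease over the same span, over 2-fold in 4. Summed, the risers measured 611 ± 93.2 RPM among the smallest larvae, 875 ± 146 in the middle class and 983 ± 142 among the largest. For the fallers the sums were 355 ± 33.4, 252 ± 49.7 and 212 ± 21.7 RPM (SD, n = 8 each). Both sums were selected on these larvae and are no independent evidence of direction. Ranks 1 to 31 held 4 risers and 3 fallers, ranks 32 to 62 held 3 and 3, and ranks 63 to 92 held 5 and 0. The risers lay on 10 scaffolds and the fallers on 6.

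**Figure D2:**
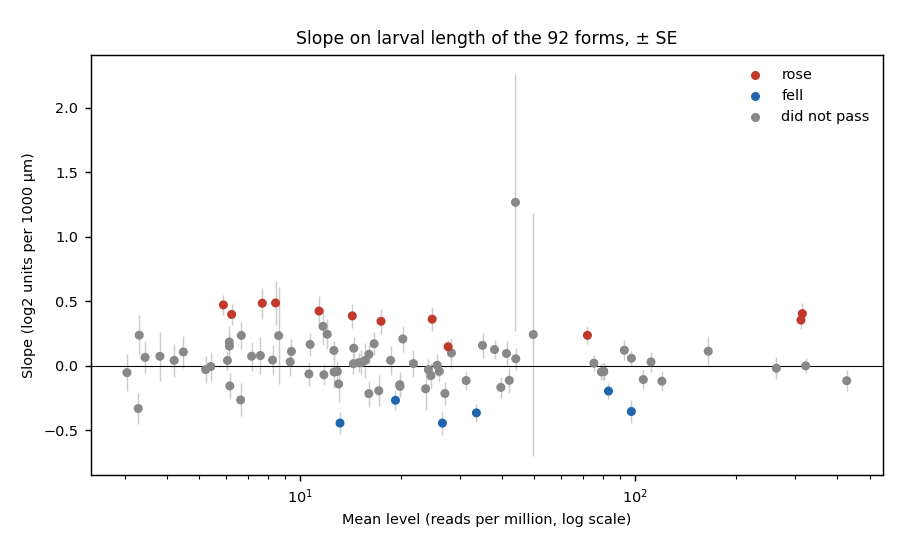
Slope on larval length with its SE, in log2 units per 1000 µm, against mean level on a log scale for the 92 forms; red rose, blue fell, grey did not pass. Slopes of -0.44 to 0.49 passed at levels from 5.90 to 315 RPM, and the highest slope, 1.27 for rank 22, had an SE of 1.00 and did not pass.

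The riser with the smallest adjusted p was among the scarcest. NW_020229837.1_36479, of rank 83, had 2.77 to 4.80 RPM in the smallest larvae with a median of 3.62. It had 4.50 to 9.07 in the middle class with a median of 6.12, and 5.84 to 8.85 in the largest with a median of 7.46. Every large larva lay above every small one. The slope was 0.47 (SE 0.077, adjusted p = 9.03e-05, edgeR), or 2.63-fold over the span. Its lowest count in a library was 5 reads. The variance expected from counting error was 79.4% of its whole variance between larvae, trend included. Within the library sets the slope came to 0.61 in the 9 and 0.43 in the 15, and the call held without any single larva.

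NW_020229692.1_33111, of rank 3, was the most abundant riser, with at least 338 reads in every library. It had 153 to 350 RPM in the smallest class with a median of 190, 235 to 515 in the middle with a median of 357, and 259 to 472 in the largest with a median of 365. The middle and largest classes overlapped widely, while all 8 large larvae lay above the median of the small ones. The slope was 0.40 (SE 0.079, adjusted p = 0.000427, edgeR), with 0.45 in the 9 libraries and 0.38 in the 15.

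A pair of risers shared a scaffold and had their highest median in the largest class. Rank 4 had 176 to 335 RPM in the smallest class with a median of 240, 191 to 375 in the middle with a median of 288, and 276 to 518 in the largest with a median of 415. On the same scaffold, rank 78 had medians of 4.71, 5.96 and 8.45 RPM in the same order, within 3.78 to 6.20, 3.27 to 7.86 and 4.42 to 12.3. In both, the largest and the smallest class overlapped. Their slopes were 0.35 (SE 0.072, adjusted p = 0.000709) and 0.40 (SE 0.082, adjusted p = 0.000750) by edgeR. Within the sets of 9 and 15, the slopes of rank 4 were 0.10 and 0.40 and those of rank 78 were 0.26 and 0.39.

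Rank 36 had class means of 19.2 ± 6.40, 23.7 ± 8.95 and 31.3 ± 7.71 RPM (SD, n = 8 each). It passed with a slope on length of 0.36 (SE 0.094, adjusted p = 0.00642, edgeR). Rank 73 rose from 5.19 ± 1.79 to 8.64 ± 3.68 and 9.28 ± 3.88 RPM (SD, n = 8 each). Its slope was 0.49 (adjusted p = 0.00507, edgeR), although 1 large larva had only 2 reads, or 1.34 RPM. Both calls held without any single larva. In the 15 libraries alone rank 73 passed (adjusted p = 0.00116, edgeR) and rank 36 did not (0.0541).

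In 5 risers, the middle class had the highest mean. These were ranks 3, 19, 56, 65 and 71. Rank 56 had 7.83 to 10.7 RPM in the smallest larvae, 13.5 to 25.4 in the middle ones and 10.7 to 21.5 in the largest, so that no middle larva overlapped the small ones. Its slope was 0.39 (SE 0.092, adjusted p = 0.00372, edgeR). Rank 65 went from 7.04 ± 1.88 to 14.7 ± 6.92 and 12.4 ± 2.89 RPM (SD, n = 8 each), its slope being 0.42 (SE 0.12, adjusted p = 0.00934, edgeR). The middle class held 5 of the 9 libraries of the smaller set, and rank 65 had a slope of 0.83 in the 9 and 0.31 in the 15.

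The calls of the other 4 risers were each lost when at least 1 of the larvae was left out. Rank 46, at 13.7 ± 3.17, 17.9 ± 7.08 and 20.7 ± 5.43 RPM, had a slope of 0.35 (adjusted p = 0.0145, edgeR). Its call was lost without the larva of 4783.45 µm (adjusted p = 0.0629, edgeR), and with library set and log10 of total reads as covariates (0.0858). Rank 19, whose counts nearly equal those of another hairpin, had a slope of 0.24 (adjusted p = 0.0170, edgeR). It was lost without the larva of 4783.45 µm (0.0708) or that of 7371.47 µm (0.0607), and with no scaling factor (0.0590).

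The last 2 risers were lost under several of the alternatives. Rank 71 rose with slope 0.49 (SE 0.17, adjusted p = 0.0422, edgeR). Of the 24 fits with 1 larva omitted, 12 no longer passed, and the highest adjusted p was 0.105. Rank 31 had the lowest slope of any riser, 0.15 (SE 0.053, adjusted p = 0.0461, edgeR), and passed in only 3 of those fits, those without the larvae of 6559.34, 6171.21 and 6979.4 µm; the highest adjusted p was 0.196. With no scaling factor their adjusted p were 0.0678 and 0.168, and with both covariates 0.0691 and 0.114.

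In each of the 6 fallers the class means were ordered from the smallest larvae down to the largest. NW_020229536.1_28834, of rank 57, had 14.8 to 24.2 RPM in the smallest larvae with a median of 17.7. It had 7.72 to 16.7 in the middle class with a median of 9.53, and 6.71 to 12.2 in the largest with a median of 10.2. Every large larva lay below every small one. The slope was -0.44 (SE 0.086, adjusted p = 0.000427, edgeR), and it was -0.62 in the 9 libraries and -0.45 in the 15.

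NW_020229425.1_23373, of rank 28, had 40.2 to 54.1 RPM in the smallest class with a median of 46.5. It had 17.5 to 40.8 in the middle with a median of 27.4, and 21.4 to 33.7 in the largest with a median of 24.9. Again the large and the small larvae did not overlap. The slope was -0.36 (SE 0.071, adjusted p = 0.000427, edgeR), with -0.50 in the 9 libraries and -0.38 in the 15.

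Rank 11 was the most abundant faller, with 99.1 to 180 RPM among the small larvae, 56.2 to 158 in the middle class and 54.2 to 94.8 among the large ones. Here too no large larva reached the level of a small one (slope -0.35, SE 0.088, adjusted p = 0.00537, edgeR). Rank 33 fell from 39.9 ± 12.6 to 21.2 ± 5.39 and 18.6 ± 3.59 RPM (SD, n = 8 each), its slope being -0.44 (SE 0.090, adjusted p = 0.000709, edgeR). Its small larvae were uneven, with a median of 44.0 and a highest level of 51.4 RPM, and the lowest of them overlapped the large larvae, which reached 23.3.

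Ranks 44 and 13 changed least among the fallers. Rank 44 had a median of 23.5 RPM among small larvae and of 15.3 in both other classes (slope -0.27, adjusted p = 0.00863, edgeR). Its neighbour of rank 7, 6 running numbers away, had a slope of -0.12 (SE 0.079, adjusted p = 0.335, edgeR). Rank 13 went from 98.0 ± 24.4 to 82.5 ± 17.9 and 69.1 ± 14.6 RPM (SD, n = 8 each), and its slope was -0.19 (SE 0.064, adjusted p = 0.0367, edgeR). Its call was lost without the larva of 4942.55, 7598.06, 6979.4 or 5284.36 µm, with adjusted p of 0.0859, 0.0521, 0.0573 and 0.0523 in that order.

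**Figure D3:**
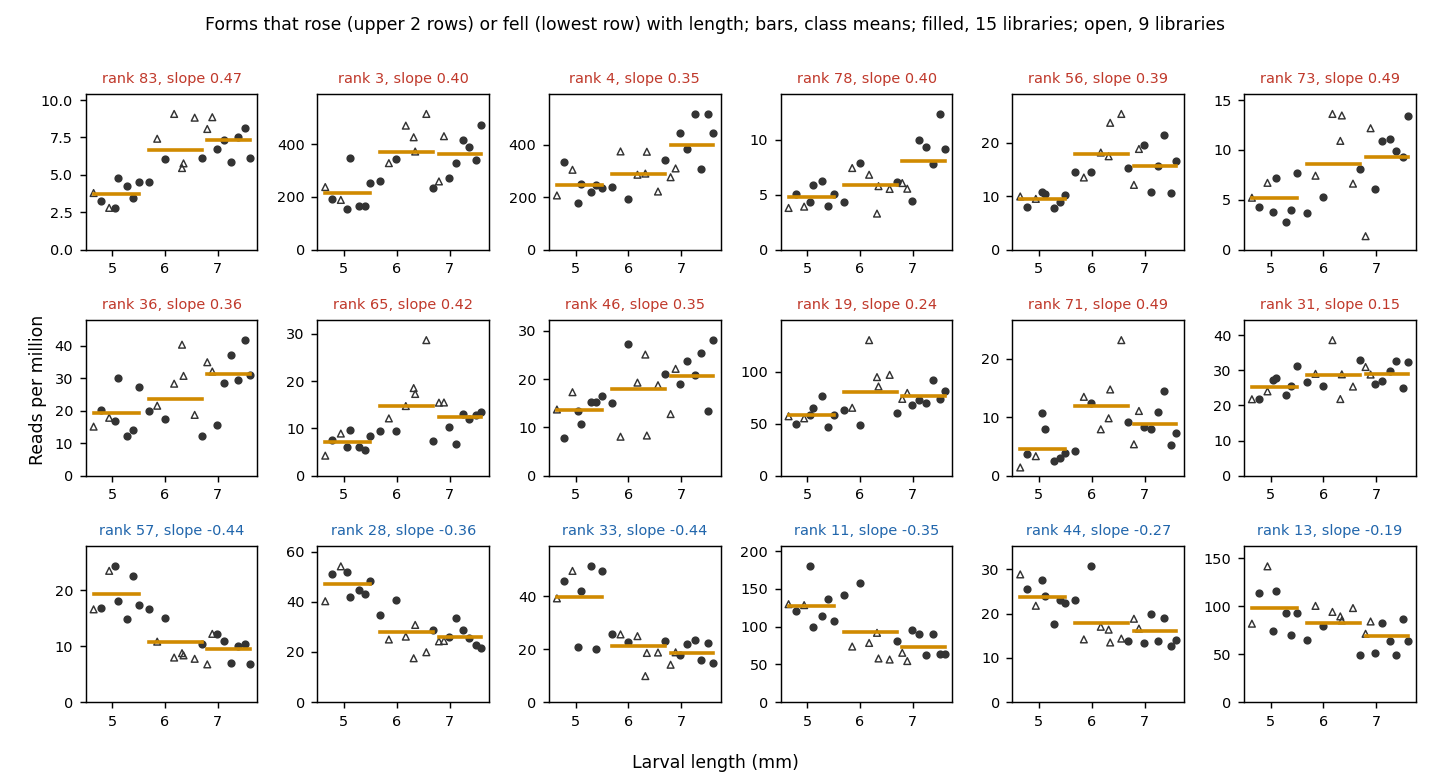
Level in RPM against larval length in mm for the 12 forms that rose and the 6 that fell, 1 point per larva; filled points are the 15 libraries, open triangles the 9, and bars the means of the 3 classes of 8. The class means are ordered by length in 7 of the 12 risers and all 6 fallers, and the middle class is highest in the other 5 risers.

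The direction of the 18 forms was the same in both library sets, and with the set as a covariate all 18 passed. The 18 were called on these same libraries, so that the match was largely set by their selection. With library set and log10 of total reads together in the model, 15 of the 18 passed, 9 risers and each of the 6 fallers. Over the 92 forms, the 18 included, the slopes in the 9 and in the 15 libraries had the same sign in 65. Fitted alone, the 15 libraries gave 8 risers and 7 fallers among the 92, and the 9 libraries gave 1 and 2. Scaled by library total alone, 9 rose and 9 fell, so the balance of directions depended on the scaling.

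Setting the 8 largest against the 8 smallest larvae, which assumes no straight line, gave 11 forms that were higher and 6 that were lower in the large larvae by edgeR, 18.5% of the 92. Each of these 17 had also passed along length. Over all 336 forms 17.0% passed, 9.82% higher and 7.14% lower. At an unadjusted p under 0.05 there were 26 of the 92 (28.3%) and 28.9% of all 336. Among the forms that passed, the difference furthest upward was 1.04 log2 units for rank 83 (SE 0.16, adjusted p = 4.5e-05, edgeR) and that furthest downward was -0.99 for rank 33 (SE 0.19, adjusted p = 0.000573, edgeR). Without the larva of 4783.45, 5395.82, 7114.6, 7255.63 or 7371.47 µm, 7 forms were higher in place of 11, and with no scaling factor 7 were higher and 8 lower. The classes did not overlap in 1 of the 92 forms with the large larvae above and in 3 with the large larvae below. Over all 336 forms these separations occurred in 1.79% and 2.98%.

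Curvature along length was tested with a squared term. None of the 92 forms passed by edgeR, DESeq2 or limma-voom, and 0.00% of all 336 passed by edgeR. The smallest adjusted p among the 92 was 0.484 by edgeR. At an unadjusted p under 0.05 there were 12 of the 92 by edgeR, against 7.74% of all 336. In 9 of these the middle was raised and in 3 it was lowered. With the library set as a covariate there were 5 of the 92 and 10 of the 336.

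A pair of members accounted for the most uneven levels and lay apart between the library sets. The form of rank 20 had 39.0 to 278 RPM in the 9 libraries with a median of 102, and 0.841 to 4.88 in the 15 with a median of 1.76. Rank 22 had 13.2 to 313 in the 9 with a median of 96.4, and 0.653 to 6.97 in the 15 with a median of 1.98. No library of the 15 reached the lowest of the 9. The medians differed 58.3-fold and 48.7-fold, with no test, since the sets were found in the counts. The sets were defined by the levels of a form outside the 92, and 4 forms in all separated them without overlap.

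The counts behind these levels were low in the deeper libraries, with 3 to 11 reads for rank 20 and 2 to 36 for rank 22 in the 15. In the 9 they were 58 to 245 and 28 to 287 reads. Both forms owe their rank to the 9 libraries, since their medians over all 24 larvae were 2.73 and 2.84 RPM. Neither met the read limit in the 15 alone, so both were chosen only through the 9. Within the 9, the ratio of rank 20 to rank 22 ranged from 0.518 to 4.12, so their counts were not copies of each other. They lie on different scaffolds. Their slopes on length, 0.24 (SE 0.94, adjusted p = 0.884) and 1.27 (SE 1.00, adjusted p = 0.444), did not pass by edgeR.

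**Figure D4:**
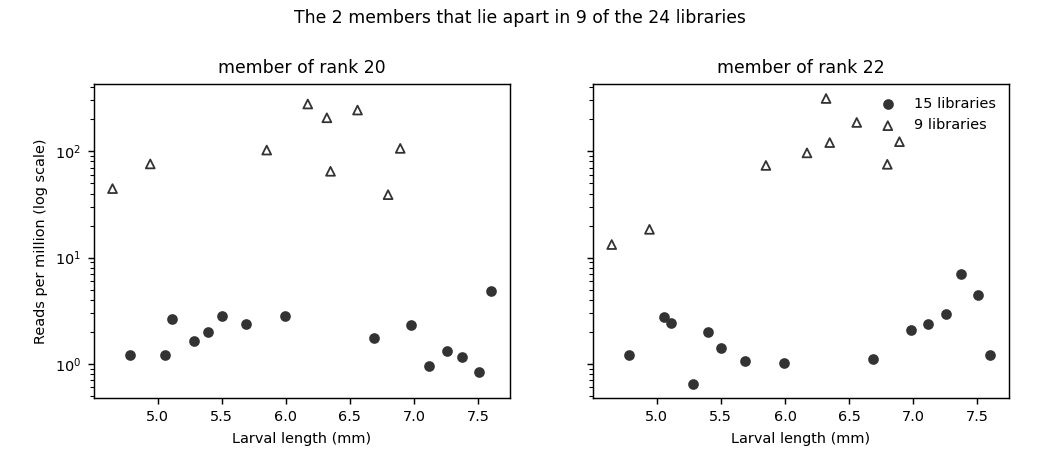
Level of the forms of rank 20 and rank 22 in RPM, on a log scale, against larval length in mm, 1 point per larva. The 9 libraries (open triangles) lie at 39.0 or more and 13.2 or more, and the 15 (filled) at 4.88 or less and 6.97 or less.

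Without this pair, the summed share of the other forms was 0.422% ± 0.0227 in the 9 libraries and 0.406% ± 0.0195 in the 15, and 0.410% ± 0.0185, 0.420% ± 0.0287 and 0.406% ± 0.0164 in the smallest, middle and largest class (SD). Of the 92 forms, 89 had medians within 2-fold between the sets. Besides the pair, only rank 51 exceeded 2-fold, at 2.05-fold higher in the 9, and the lowest ratio was 0.503, for rank 39.

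The level of the second-listed form of each hairpin was not used by the choice. A hairpin yields a mature strand from each of its arms, and usually 1 of them is retained while the other is degraded; the headers do not say which arm is listed first. Of the 92 hairpins, 11 had no read of the second-listed form in any library, and 36 had fewer than 1 read of it per 100 reads of the first. The median was 2.26 per 100, against 0.338 per 100 in the 33 solitary abundant hairpins. This ratio is divided by the first-listed reads, whose level the choice limited. The comparison of these medians is therefore not independent of the choice. In 3 hairpins the second-listed form was the more abundant. Rank 63 had 251 reads of it per 100 of the first, rank 62 had 120 and rank 57 had 108. The second-listed form reached the read limit in 24 of the 92 hairpins (26.1%), against 103 of all 233 tested first-listed forms (44.2%) and 23 of the 33 solitary abundant ones (69.7%). The read limit is set on counts, so these shares depend on level, and hairpins of matched level were not compared.

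Among these 24 hairpins, 5 second-listed forms changed with length, 2 rising and 3 falling. Over all 336 tested forms 20.5% passed, 11.6% rising and 8.93% falling, so this count is near the share of the whole table. In 4 of the 5 the first-listed form had passed as well, with the same sign. In rank 57 the second-listed form fell from 19.5 ± 4.90 to 11.8 ± 5.46 and 10.2 ± 1.93 RPM (SD, n = 8 each; slope -0.41, SE 0.10, adjusted p = 0.00640, edgeR). In rank 28 it fell from 31.9 ± 13.1 to 21.4 ± 7.89 and 18.9 ± 4.12 (slope -0.30, SE 0.097, adjusted p = 0.0367, edgeR). In rank 19 it rose from 17.0 ± 4.21 to 25.1 ± 7.22 and 23.7 ± 2.37 (slope 0.29, SE 0.086, adjusted p = 0.0197, edgeR). In rank 78 it rose from 3.70 ± 1.56 to 4.21 ± 1.53 and 6.92 ± 2.79 (slope 0.38, SE 0.13, adjusted p = 0.0367, edgeR).

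In 2 hairpins whose first-listed form fell, the second-listed form did not pass. The slopes were -0.35 and -0.24 (adjusted p = 0.0718, edgeR) in rank 11. They were -0.19 and 0.03 (adjusted p = 0.873, edgeR) in rank 13. In rank 32 the second-listed form fell (slope -0.33, adjusted p = 0.0227, edgeR) and the first-listed one did not pass (slope -0.21, adjusted p = 0.0906, edgeR). No difference between the forms of a hairpin was tested. The slopes of both forms shared their sign in 19 of these 24 hairpins. Each library gave both forms, so this is no separate support for a relation to length.

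**Figure D5:**
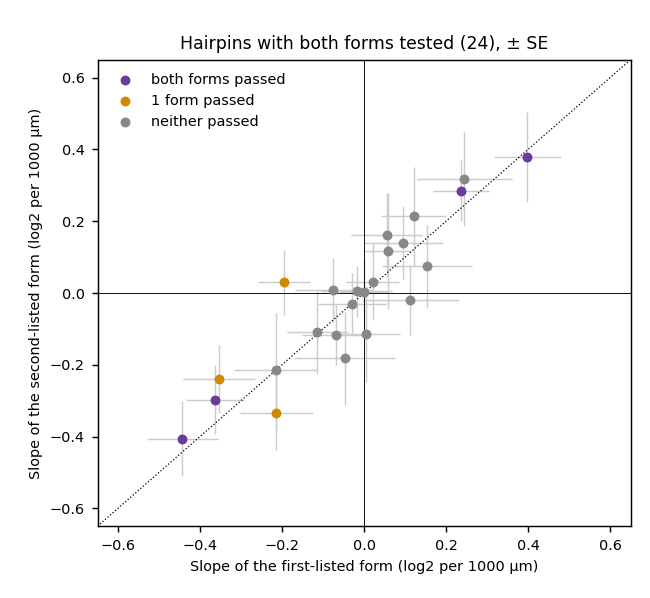
Slope of the second-listed against that of the first-listed form, in log2 units per 1000 µm with SE, for the 24 hairpins in which both were tested; the dotted line marks equal slopes. Both forms passed in 4 hairpins (purple), from -0.44 and -0.41 in rank 57 to 0.40 and 0.38 in rank 78.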

How the data were processed

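Small RNA from whole larvae was sequenced with the TruSeq small RNA kit, per the labels' protocols. The submitters' processing notes name bcl2fastq 2.20 and Trim Galore 0.6.7; for aligner, miRNA caller, counter and build nothing is given in the sources used here. The deposited tables hold raw read counts and the authors' RPM, which equals the count per 1000000 counted reads to within 0.0050. Of 924 rows, those whose count has a decimal point were taken as first-listed forms, and a repeated name was collapsed to its maximum.

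The 336 forms with 10 or more reads in 12 or more libraries were fitted with edgeR 4.0.16 in R 4.3.3, with TMM factors (0.878 to 1.12) and robust quasi-likelihood F tests, adjusted over all 336. The fits were slope, 3 classes and squared term. Levels are RPM of the library total, without TMM. Folds over the span are fitted values. Forms were called near-identical when summed differences were within 5% of their mean reads. The library sets are the widest gap in log2 CPM of any tested form with at least 5 libraries on each side. DESeq2 1.42.0 and limma 3.58.1 were alternatives.

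Forms described are those past a test, the 3 highest and 3 lowest in level and those at the limits; the pair of ranks 20 and 22, and ranks 7, 32, 39, 51, 62, 63 and 70, were added after their values were seen. Identifiers are printed for 2 risers and 2 fallers. The members, classes and tests were chosen with earlier results of these data known. Reads carry no molecular identifiers that the sources mention.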

Additional observations from a re-analysis of the deposited data

Results flagged for a closer look

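Levels of 25 forms were searched for a larva far from the other 7 of its size class, in 75 sets of 8 values, and 3 were found. Chance alone gives about 1 in 20 sets. The form of rank 11 had 180 RPM in the larva of 5054.15 µm against 99.1 to 136 in the other small larvae, a gap of 0.542 of the whole range. Rank 33 had 9.82 RPM in the middle larva of 6320.12 µm against 18.6 to 25.7 in the others, a gap of 0.552 of the range. Both forms fell with length, and both calls held without any single larva, with adjusted p up to 0.0131 and 0.00262 (edgeR). The form of rank 20 had 106 RPM in the large larva of 6892.55 µm against 0.841 to 39.0 in the others, a gap of 0.638 of the range. That library belongs to the set of 9, as does the only other large larva with a raised level.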

How the results depend on the processing

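Of the 18 forms that changed with length, none reversed in the 6 alternative fits run on each of them or in the 24 fits without 1 larva; 13 passed in all 24 of the latter. Leaving out 1 larva gave 8 to 12 risers and 5 to 7 fallers, 7 to 11 forms higher and 4 to 8 lower in the largest class, and 0 with a squared term. With at least 10 reads required in all 24 libraries, which 49 of the 92 forms met, 6 rose, and 6 were higher in the largest class; 5 of the 12 risers and 2 of the 6 fallers were no longer tested. In the 9 libraries alone 1 rose and 2 fell, with fewer samples. The counts in this section are given without shares over all tested forms and describe only how the calls depend on the processing. With no scaling factor 7 were higher in the largest class. With no tested form allowed within 50 running numbers, 62 forms were left and 3 of them fell. All other counts in the alternatives run lay within 1.5 times those reported, among them 11 risers and 9 fallers by DESeq2 and 12 and 7 by limma-voom. No paired analysis was possible because the labels number no replicates across groups. Low counts limit the scarcest forms: 7 of the 18 had under 10 reads in at least 1 library.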

Other observations

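The form of rank 70 was the third most uneven, with a biological coefficient of variation of 94.5%. It ranged from 0.428 to 44.9 RPM with a median of 5.86, and its medians were 6.70 in the 9 libraries and 4.26 in the 15. Its highest value, in a library of the 9, came from a middle-sized larva. The slope on length was 0.23 (SE 0.37, adjusted p = 0.745, edgeR). Rank 39 ranged from 4.36 to 57.3 RPM with a median of 23.4, and its medians were 13.5 in the 9 libraries and 26.8 in the 15.

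Within the set of 9, the form of rank 22 was lowest in the 2 small larvae. Its class means over all 24 larvae were 5.26, 99.1 and 27.3 RPM from smallest to largest, and those of rank 20 were 16.5, 113 and 19.6. The middle class holds 5 of the 9 libraries and the other classes 2 each, so class means of this pair cannot be told apart from the make-up of the sets. Neither form passed the test along length, the class test or the squared term by edgeR.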
